A study of Mus musculus with 12 samples.

Results

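The 9 genes described here form the core of beta-adrenergic lipolysis in mouse fat: the receptor genes Adrb1 and Adrb3, the lipase genes Pnpla2, Lipe and Mgll, the lipid droplet genes Plin1 and Abhd5, and the inhibitory genes G0s2 and Pde3b. They were taken by gene symbol from a table of 23474 genes, and each of the 9 was found once by its Ensembl identifier. The table holds FPKM values, that is fragment counts scaled for transcript length and sequencing depth, from RNA-seq of whole epididymal white adipose tissue (eWAT). The study asked how Taeeumjowuitang (TJ), a herbal medicine given with a fatty diet, alters transcripts of lipid and glucose metabolism in this tissue. All animals were male C57BL/6J mice, 17 weeks old at collection after 12 weeks on their diet, and the labels give 10 mice per group. The methods describe only HFD and TJ, for which 3 mice each were sampled, and the sources do not say that each ND and GT library came from a single mouse. Mice were fasted for 12 h before collection, per those methods. The ND group received the normal diet and the HFD group the high-fat diet. The GT group received the high-fat diet with a green tea extract made in ethanol at 0.25% (w/w), and the TJ group the high-fat diet with 3% (w/w) TJ. The extracts were thus given at different doses and only together with the high-fat diet, so that GT and TJ were compared with HFD and their comparison with each other was not dose-matched. Each of the 4 groups had 3 libraries, numbered as replicates 1 to 3 in the labels.

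Adipocytes store triglyceride in a lipid droplet and release it as fatty acids and glycerol when noradrenaline binds beta-adrenergic receptors. The receptors raise cAMP, and protein kinase A then phosphorylates perilipin 1 on the droplet and hormone-sensitive lipase. Perilipin 1 lets go of the co-activator ABHD5, which switches on adipose triglyceride lipase, and the lipases act in turn on triglyceride, diglyceride and monoglyceride, while G0S2 and the cAMP-degrading enzyme PDE3B act as brakes.

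In the TJ group, 4 of the 9 genes were higher than in the HFD group and none was lower. These were Adrb3, Lipe, Plin1 and G0s2, a receptor, a lipase, a droplet protein and a lipase inhibitor. A gene was called differentially expressed (DEG) with a Benjamini-Hochberg adjusted p below 0.05 in limma and a fold change of at least 1.5, and 7.41% of the 12807 genes tested were DEGs in that direction. After quantile normalization the whole table turned from 949 higher and 1417 lower DEGs to 1543 and 1151, and 3 of the 9 genes, without Plin1, were called. The median log2 fold change of the 9 genes was 0.64, against -0.14 for all genes tested. In 6 of the 9 genes every TJ library was above every HFD library, and in 1, Abhd5, every TJ library was below (20.1% and 31.4% of all genes tested stood apart in these directions). Without HFD replicate 1, 2 or 3 or TJ replicate 1, limma called 0 of the 9 (with 4, 4, 4 and 5 at an unadjusted p below 0.05), and in those fits 0 genes of the whole table were DEGs (3732 to 4735 at an unadjusted p below 0.05).

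In the GT group, 3 of the 9 genes, Lipe, Plin1 and G0s2, were higher than in the HFD group, where 1.83% of 12766 genes tested were DEGs in that direction. The median over the 9 genes was 0.59, against -0.12 for all genes, and all 9 estimates were above 0. Every GT library was above every HFD library in 6 genes (12.3% of all genes tested). Leaving out any HFD library, GT replicate 2 or GT replicate 3 left 0 DEGs among the 9 by limma, each time with 6 at an unadjusted p below 0.05, and leaving out GT replicate 1 gave 6. The whole table moved with them: 464 of all genes were DEGs over the 6 libraries, 4 to 66 in the first 5 of these fits and 1107 without GT replicate 1. The TJ and GT comparisons share the same 3 HFD libraries. They are therefore given side by side below and their overlap is not read as a result.

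Between the extract groups, limma called 0 of the 9 genes in TJ against GT (3 at an unadjusted p below 0.05), with 0.148% of 12187 genes called in all. Adrb3 and G0s2 were higher in every TJ library than in every GT library, and Mgll and Abhd5 were lower in every TJ library (19.5% and 14.9% of all genes tested). In HFD against ND, 0 of the 9 genes were DEGs by limma over all 6 libraries (0 at an unadjusted p below 0.05), where 1.77% of 14430 genes were called. That comparison turned on a single library. Without ND replicate 1, 6 of the 9 genes were lower in HFD than in ND: Adrb3, Pnpla2, Lipe, Plin1, G0s2 and Pde3b. In that fit 4.34% of 13661 genes were DEGs in that direction. In 8 of the 9 genes, all but Mgll, every HFD library was then below both remaining ND libraries (19.2% of all genes tested).

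ND replicate 1 stood apart from the other libraries before any of the 9 genes was considered. Markers of testis germ cells and epididymis, 16 genes in all, made up 11.6% of its FPKM sum and at most 0.565% of any other. Its Spearman correlation with the other ND libraries was 0.724 and 0.829 across genes, against 0.936 between those 2, and the sum of 7 adipocyte markers was 3898 FPKM in it against 16427 to 59260 FPKM in the other 11 libraries. HFD replicate 1 and ND replicate 3 held germ cell markers at a sum of 2061 and 2980 FPKM, and HFD replicate 2 held epididymis markers at 1276 FPKM. The adipocyte sum lay between 16427 and 18790 FPKM in HFD, between 23254 and 26212 FPKM in GT and between 28620 and 59260 FPKM in TJ, where replicate 2 was highest, and 6 of 7 markers were above every HFD library in both extract groups. The other, the leptin gene Lep, was below every HFD library in TJ (292 to 825 against 899 to 1196 FPKM) and overlapped HFD in GT. The sum of 8 macrophage markers ran from 58.2 to 559 FPKM in ND, from 2893 to 4066 FPKM in HFD, from 1200 to 2649 FPKM in GT and from 716 to 2121 FPKM in TJ. All 8 macrophage markers were higher in every HFD than in every ND library, and 7 and 8 of the 8 were lower in every GT and every TJ library than in every HFD library. Stromal markers (6 genes) summed to 1733 to 1863 FPKM in HFD, 1000 to 1349 FPKM in GT and 692 to 1014 FPKM in TJ. Endothelial markers (5 genes) summed to 192 to 221 FPKM in HFD, 212 to 260 FPKM in GT and 227 to 373 FPKM in TJ. Mesothelial, lymphocyte and brown adipocyte markers reached at most 71.9, 8.40 and 53.3 FPKM in any library, each in ND replicate 1. Lymphocyte markers (7 genes) summed to 2.24 to 2.59 FPKM in HFD and 4.82 to 7.07 FPKM in TJ. In 4 of the 7, every TJ library was above every HFD library, and 0 were below. Of 8 testis germ cell markers, 7 were lower in every TJ than in every HFD library, and 0 were higher. No adipocyte or macrophage marker was at 0 in every library. In whole tissue, fewer cells of a type and less RNA per cell cannot be told apart, and the part of these cell-type differences in the levels below was not tested.

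**Figure D1:**
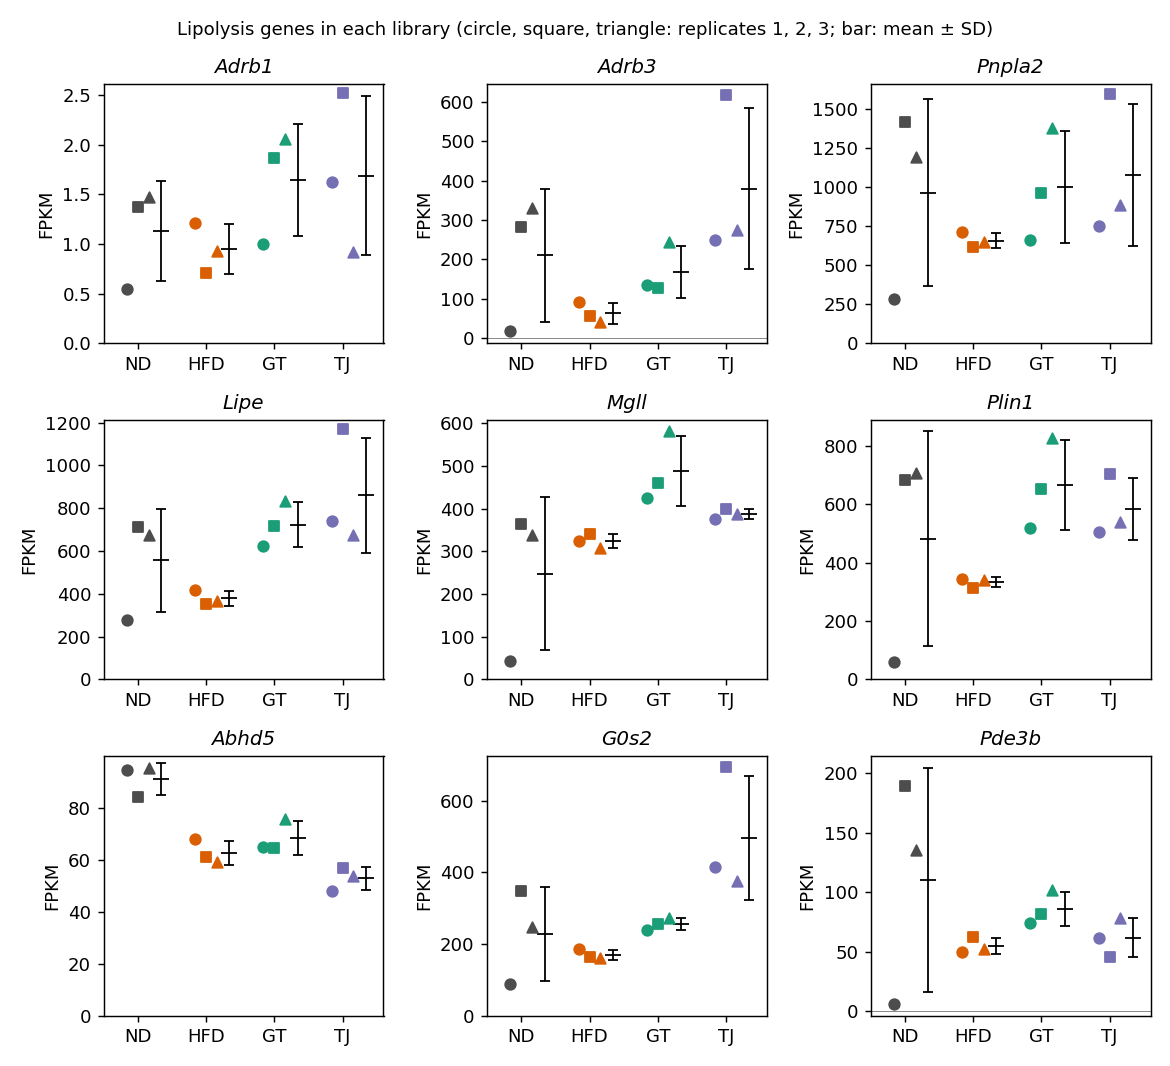
FPKM of the 9 lipolysis genes (y axis, linear) in each of the 12 libraries by group (x axis), with circle, square and triangle for replicates 1, 2 and 3 and a bar for the mean ± SD of 3 libraries. ND replicate 1 was the lowest library for 8 of the 9 genes but not for Abhd5, and Adrb3, Lipe, Plin1 and G0s2 had all 3 TJ libraries above all 3 HFD libraries.

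Adrb3 encodes the beta-3 adrenergic receptor, the main beta-receptor of rodent adipocytes. It lies on the reverse strand of chromosome 8 (GRCm38, 27225776 to 27250616). Its level was 17.8, 282 and 331 FPKM in ND replicates 1 to 3, 92.0, 56.9 and 41.4 FPKM in HFD, 135, 126 and 245 FPKM in GT, and 249, 616 and 274 FPKM in TJ. The HFD libraries lay below all libraries of the other groups except ND replicate 1, the GT libraries in between, and TJ replicate 2 was the highest of all 12. By group median the order was ND, TJ, GT and HFD, in which the ND range held all HFD and GT libraries once replicate 1 was counted and overlapped TJ, while TJ, GT and HFD did not overlap each other. Adrb3 was the gene of the 9 with the largest estimate in the TJ group, with a log2 fold change of 2.51 ± 0.41 (SE) against HFD (adjusted p = 0.0240). Against HFD, the GT group had an estimate of 1.41 ± 0.35 that did not pass (adjusted p = 0.0647). TJ against GT gave 1.11 ± 0.39 (adjusted p = 0.161), so a difference between the extracts was not called although their libraries did not overlap. With ND replicate 1 left out, Adrb3 fell by 2.33 on the log2 scale in HFD against ND (SE 0.34, adjusted p = 0.0120), and over all 6 libraries the estimate was -0.98 ± 1.15 (adjusted p = 0.656). The Adrb3 locus shares 839 exonic bases with Gm45470, an antisense transcript that has no row in the table. The library kit was not stated to keep strand, so reads of the overlap cannot be assigned to either.

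Adrb1, the beta-1 adrenergic receptor gene (chromosome 19, 56722199 to 56733113, forward strand), was far less abundant. It measured 0.551, 1.37 and 1.47 FPKM in ND, 1.21, 0.711 and 0.928 FPKM in HFD, 1.00, 1.87 and 2.06 FPKM in GT, and 1.62, 2.52 and 0.921 FPKM in TJ. All neighbouring groups overlapped, and no comparison was past the threshold. The estimates against HFD were 0.42 ± 0.25 in GT (adjusted p = 0.294) and 0.43 ± 0.29 in TJ (adjusted p = 0.286) on a log2(FPKM + 1) scale, which understates folds at so low a level. Adrb3 exceeded Adrb1 in every library, and the ratio of their FPKM values was 32.3, 206 and 225 in ND, 75.9, 80.0 and 44.6 in HFD, 134, 67.7 and 119 in GT, and 154, 244 and 298 in TJ. The ratio was higher in every TJ library than in every HFD and every GT library, while ND replicates 2 and 3 lay within the TJ range, and it rests on Adrb1 levels near 1 FPKM.

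Pnpla2 encodes adipose triglyceride lipase (ATGL), which removes the first fatty acid from triglyceride. It had the highest FPKM of the 9 genes in all 12 libraries. Pnpla2 measured 284, 1416 and 1189 FPKM in ND, 708, 614 and 646 FPKM in HFD, 659, 959 and 1374 FPKM in GT, and 748, 1594 and 886 FPKM in TJ. All TJ libraries were above all HFD libraries, with TJ replicate 1 only slightly so, while GT replicate 1 fell among the HFD libraries. Neither comparison with HFD passed, with estimates of 0.54 ± 0.25 for GT (adjusted p = 0.201) and 0.64 ± 0.28 for TJ (adjusted p = 0.135). In HFD against ND without ND replicate 1, Pnpla2 fell by 0.99 on the log2 scale (SE 0.14, adjusted p = 0.0116). The estimate over all 6 libraries was -0.26 ± 0.68 (adjusted p = 0.843).

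The stretches upstream of Pnpla2 and of its inhibitor G0s2 are shown because the ratio of these genes separated the TJ libraries from all others, as given further on. They come from RefSeq (GRCm38.p6), run 5′ to 3′ up to the annotated start of the transcript or gene, and carry in capitals the motifs searched on both strands: CANNTG (E-box), GGGCGG (GC box) and AGGTCA (nuclear receptor half-site). The Pnpla2 stretch is chr7:141454938-141455187 on the forward strand and the G0s2 stretch is chr1:193273218-193273438 on the reverse strand.
Pnpla2: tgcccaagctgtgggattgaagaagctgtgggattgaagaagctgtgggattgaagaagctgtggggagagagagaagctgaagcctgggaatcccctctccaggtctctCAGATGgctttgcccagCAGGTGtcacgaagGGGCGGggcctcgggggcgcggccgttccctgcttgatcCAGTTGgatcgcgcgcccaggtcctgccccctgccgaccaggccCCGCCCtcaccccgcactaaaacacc
G0s2: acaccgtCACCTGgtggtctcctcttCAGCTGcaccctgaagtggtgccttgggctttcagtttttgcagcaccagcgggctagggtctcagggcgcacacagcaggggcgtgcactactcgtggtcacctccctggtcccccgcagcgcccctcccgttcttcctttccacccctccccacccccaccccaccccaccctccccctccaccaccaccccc
The Pnpla2 stretch holds 3 E-boxes and 2 GC boxes, and the G0s2 stretch 2 E-boxes. Windows of 250 bases before the start were searched for 7 of the 9 genes (9 windows, counting second starts of Lipe and Mgll). No window was available for Adrb3 and Pde3b. The Lipe windows and the later Mgll window lay wholly within the annotated gene. An E-box was present in 6 of the 9 windows and in 66.2% of 32817 mouse windows, and a GC box in 6 of 9 and in 32.7%. A cAMP response element (TGACGTCA) was in 0 of the 9 and in 1.55%, a C/EBP motif (TTGCNNCAA) in 0 of 9 and in 1.74%, and a TATA box (TATAAA) in 0 of 9 and in 12.4%. A match describes letters only and shows no bound factor.

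Lipe encodes hormone-sensitive lipase (HSL), which acts mainly on diglyceride and is a target of protein kinase A. Its level was 278, 714 and 677 FPKM in ND, 417, 354 and 366 FPKM in HFD, 622, 715 and 832 FPKM in GT, and 739, 1168 and 673 FPKM in TJ. The GT and TJ libraries lay wholly above the HFD libraries and overlapped each other, and the ND libraries overlapped all other groups. Lipe rose in GT by 0.92 ± 0.13 on the log2 scale (adjusted p = 0.0338) and in TJ by 1.14 ± 0.23 (adjusted p = 0.0278). TJ against GT gave 0.22 ± 0.25 (adjusted p = 0.584). Lipe fell by 0.88 in HFD against ND without ND replicate 1 (SE 0.13, adjusted p = 0.0116), and over all 6 libraries the estimate was -0.44 ± 0.47 (adjusted p = 0.630). The gene lies on chromosome 7 (25379527 to 25398710, reverse strand) and shares 918 exonic bases with the antisense gene 4732471J01Rik, whose own row reached at most 18.4 FPKM.

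Mgll encodes monoglyceride lipase, which releases the last fatty acid and glycerol (chromosome 6, 88724412 to 88828360, forward strand). It measured 42.1, 364 and 338 FPKM in ND, 324, 339 and 308 FPKM in HFD, 424, 460.4 and 581 FPKM in GT, and 375, 399.6 and 388 FPKM in TJ. The GT libraries were highest, the TJ libraries came next without overlap, and the HFD libraries were lower than both. None of these gaps was called, with estimates of 0.58 ± 0.13 for GT against HFD (adjusted p = 0.0576), 0.26 ± 0.13 for TJ against HFD (adjusted p = 0.164) and -0.32 ± 0.18 for TJ against GT (adjusted p = 0.276). Unlike the 6 genes that were lower in HFD without ND replicate 1, Mgll had an estimate of -0.12 ± 0.11 in that fit (adjusted p = 0.535). Its estimate over all 6 libraries was 0.89 ± 0.87 (adjusted p = 0.598). A test of the difference between Mgll and those genes was not made.

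Plin1 encodes perilipin 1, which coats the droplet and keeps lipases off it at rest. Its level was 59.1, 682 and 706 FPKM in ND, 343, 314 and 341 FPKM in HFD, 519, 652 and 825 FPKM in GT, and 504, 703 and 540.0 FPKM in TJ. The HFD libraries were close together and below every GT and TJ library, while GT and TJ overlapped. Plin1 rose by 0.97 ± 0.17 in GT (adjusted p = 0.0379) and by 0.79 ± 0.17 in TJ (adjusted p = 0.0293). After quantile normalization the TJ estimate was 0.51, under the fold threshold. In HFD against ND, Plin1 fell by 1.06 once ND replicate 1 was left out (SE 0.11, adjusted p = 0.00462). Over all 6 libraries the estimate had the other sign, at 0.12 ± 1.00 (adjusted p = 0.954).

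Abhd5 encodes the co-activator of ATGL that perilipin 1 holds at rest (chromosome 9, 122351608 to 122381524, forward strand). It measured 94.3, 84.0 and 95.1 FPKM in ND, 67.9, 60.9 and 59.2 FPKM in HFD, 64.7, 64.6 and 75.7 FPKM in GT, and 48.1, 56.8 and 53.9 FPKM in TJ. All ND libraries, replicate 1 included, were above all others, and all TJ libraries were below all others, while HFD and GT overlapped. The estimates stayed short of the threshold, at -0.24 ± 0.13 for TJ against HFD (adjusted p = 0.198), -0.36 ± 0.14 for TJ against GT (adjusted p = 0.179) and -0.53 ± 0.25 for HFD against ND (adjusted p = 0.494). Abhd5 was thus the 1 gene of the 9 whose HFD libraries were all below all 3 ND libraries (5.89% of all genes tested), and without ND replicate 1 its estimate was -0.51 ± 0.12 (adjusted p = 0.0507). The gene shares 950 exonic bases with the antisense gene A730085K08Rik, listed at up to 17.7 FPKM.

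The stretches upstream of Plin1 (chr7:79732904-79733026, reverse strand) and Abhd5 (chr9:122351366-122351607, forward strand) are given for the same reason, since the ratio of these genes separated the extract groups from HFD. Capitals mark the same 3 motifs.
Plin1: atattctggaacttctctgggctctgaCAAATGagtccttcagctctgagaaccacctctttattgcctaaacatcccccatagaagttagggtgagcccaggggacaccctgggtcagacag
Abhd5: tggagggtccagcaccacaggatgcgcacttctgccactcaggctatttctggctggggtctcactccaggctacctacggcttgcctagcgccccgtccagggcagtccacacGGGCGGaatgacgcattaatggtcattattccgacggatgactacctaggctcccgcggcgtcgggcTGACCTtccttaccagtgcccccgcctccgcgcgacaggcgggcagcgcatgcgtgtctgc
The Plin1 stretch is shorter because the annotated gene begins further upstream than the RefSeq start, and it holds 1 E-box. The Abhd5 stretch holds a GC box and, alone among the 9 windows, a nuclear receptor half-site, which 14.0% of all windows hold.

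G0s2 encodes a small inhibitor that binds ATGL. It measured 87.7, 349 and 248 FPKM in ND, 186, 163 and 161 FPKM in HFD, 239, 256 and 272 FPKM in GT, and 414, 694 and 377 FPKM in TJ. The libraries of HFD, GT and TJ formed 3 steps without overlap, with TJ highest and TJ replicate 2 at its top. G0s2 rose by 0.59 ± 0.10 in GT (adjusted p = 0.0379) and by 1.49 ± 0.24 in TJ (adjusted p = 0.0238). TJ against GT gave 0.90 ± 0.24 (adjusted p = 0.126). Set against ND replicates 2 and 3, G0s2 fell by 0.79 in HFD (SE 0.18, adjusted p = 0.0428). With all 6 libraries its estimate was -0.21 ± 0.55 (adjusted p = 0.840). The gene lies within the Lamb3 locus on the opposite strand (chromosome 1, 193272161 to 193273217) and shares 0 exonic bases with it.

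Pde3b encodes phosphodiesterase 3B, through which insulin lowers cAMP in adipocytes (chromosome 7, 114415281 to 114539251, forward strand). Its level was 6.19, 189 and 136 FPKM in ND, 49.6, 62.4 and 52.0 FPKM in HFD, 73.9, 81.5 and 102 FPKM in GT, and 61.2, 45.6 and 78.4 FPKM in TJ. ND replicates 2 and 3 were the highest of all libraries and ND replicate 1 the lowest. GT lay above HFD without overlap, while TJ overlapped both. The estimates were 0.63 ± 0.15 for GT against HFD (adjusted p = 0.0593), 0.15 ± 0.21 for TJ against HFD (adjusted p = 0.615) and -0.49 ± 0.22 for TJ against GT (adjusted p = 0.219). Pde3b fell by 1.54 in HFD against ND without ND replicate 1 (SE 0.19, adjusted p = 0.00752), and over all 6 libraries the estimate was -0.04 ± 1.25.

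**Figure D2:**
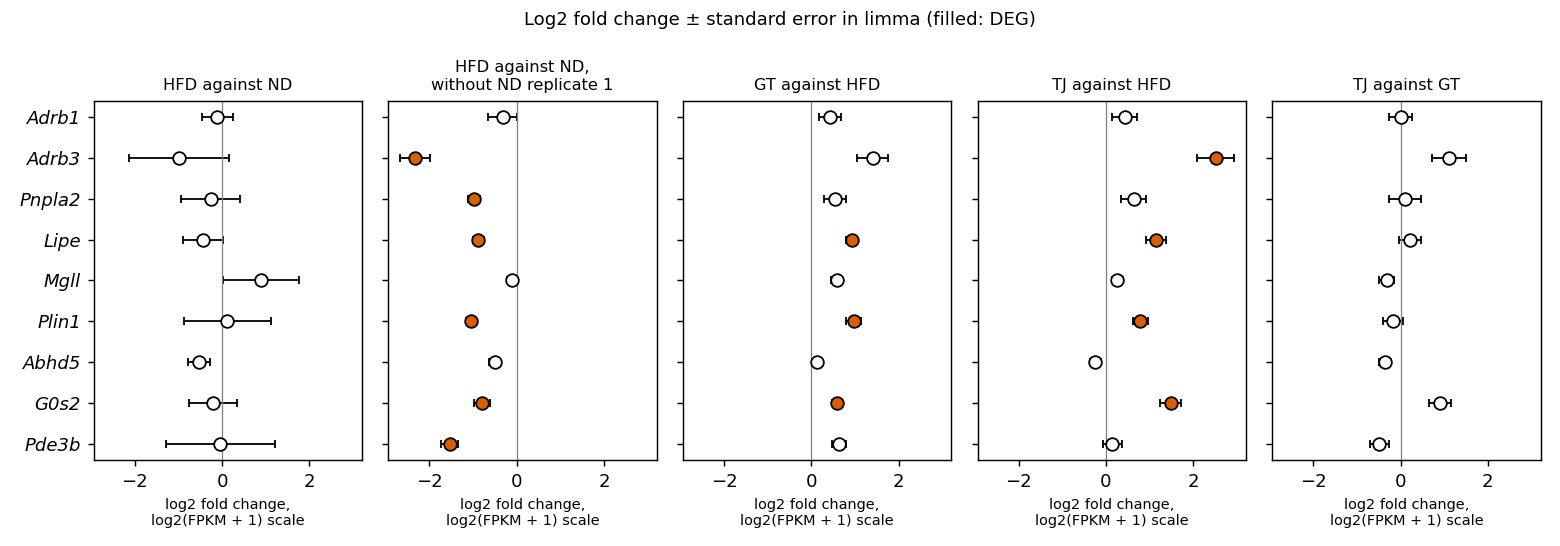
Log2 fold changes of the 9 genes (x axis, log2(FPKM + 1) scale, first group over second) with standard errors from limma, 1 panel per comparison, DEGs filled. The HFD against ND errors were widest with ND replicate 1 in the fit, and without it 6 genes were lower in HFD, whereas 3 genes were higher in GT and 4 in TJ than in HFD.

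Ratios between the genes were then taken within each library, starting with the lipase and its inhibitor. The ratio of Pnpla2 to G0s2 FPKM was 3.24, 4.06 and 4.79 in ND, 3.80, 3.76 and 4.03 in HFD, 2.76, 3.74 and 5.05 in GT, and 1.81, 2.30 and 2.35 in TJ. Every TJ library was below every library of the other groups. On the log2 scale TJ differed from HFD by -0.85 and from GT by -0.81, each with an exact permutation p of 0.1, the smallest that 3 against 3 libraries allow (two-sided). The ratio of Pnpla2 to Lipe was 1.02, 1.98 and 1.76 in ND, 1.70, 1.73 and 1.76 in HFD, 1.06, 1.34 and 1.65 in GT, and 1.01, 1.36 and 1.32 in TJ. It was lower in every GT and every TJ library than in every HFD library, with log2 differences of -0.38 and -0.50, and ND replicate 1 stood among the extract groups.

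Abhd5 relative to Plin1 stood at 0.198, 0.194 and 0.174 in HFD, 0.125, 0.0991 and 0.0918 in GT, 0.0953, 0.0807 and 0.0997 in TJ, and 1.59, 0.123 and 0.135 in ND. ND replicate 1 was far above all other libraries, and the HFD libraries were above ND replicates 2 and 3. The GT and TJ libraries were below all HFD libraries, with log2 differences of -0.85 and -1.04 (exact permutation p = 0.1 each). Over the 52 tests of this kind, 13 measures in 4 comparisons, the lowest adjusted p was 0.208, so no ratio passed. These ratios were taken within a library and do not depend on scaling between libraries.

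**Figure D3:**
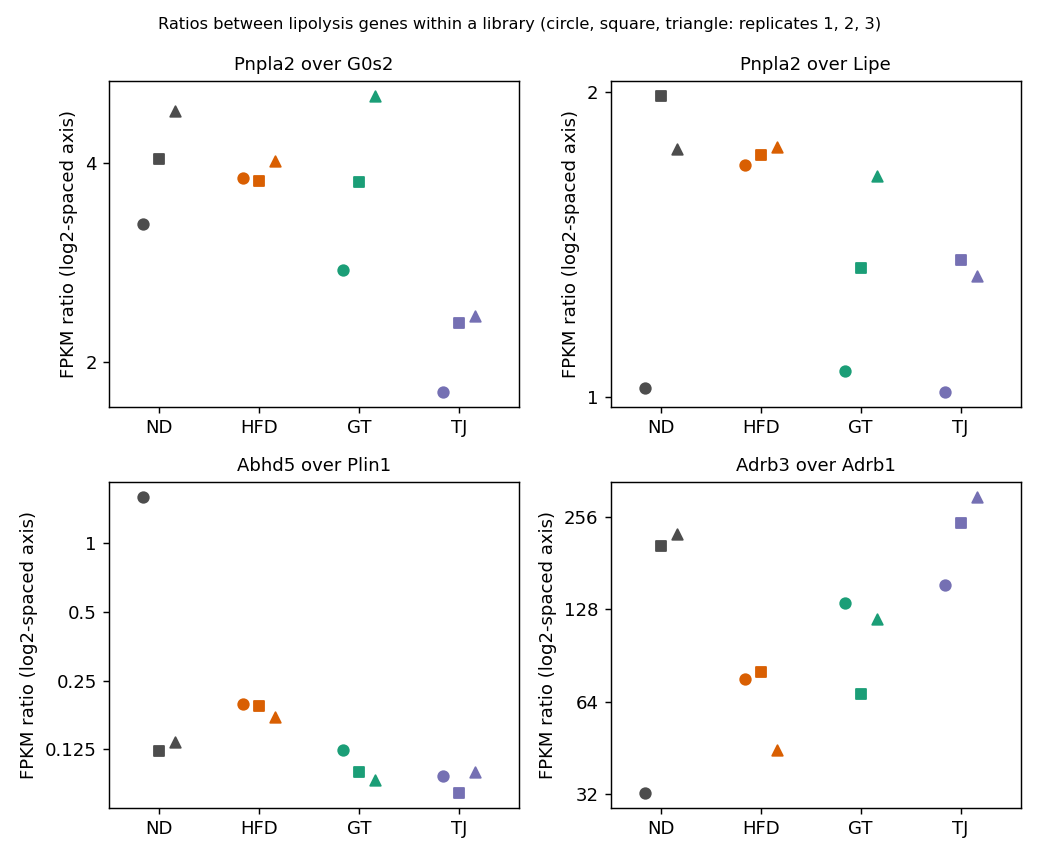
Ratios of FPKM values between lipolysis genes within each library (y axis, log2-spaced) by group (x axis), with circle, square and triangle for replicates 1, 2 and 3. Pnpla2 over G0s2 was 1.81 to 2.35 in TJ and at least 2.76 elsewhere, and Abhd5 over Plin1 was 0.174 to 0.198 in HFD and at most 0.125 in GT and TJ.

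Because most adipocyte markers were themselves higher in the extract groups, each gene was also set against the geometric mean of 5 of them: Adipoq, Fabp4, Cidec, Plin4 and Pparg. Lep and Retn, also on that marker list, were left out. In TJ Lep was below and Retn above every HFD library, and a reference with them was not computed. Relative to the 5 markers, Adrb3 and G0s2 were higher in every TJ library than in every HFD library, by 1.52 and 0.48 on the log2 scale, and no other of the 9 was. The share of all genes standing apart on this measure was not computed for any comparison. Adrb3 relative to the 5 markers was 0.149, 0.165 and 0.218 in ND, 0.104, 0.0640 and 0.0508 in HFD, 0.119, 0.0927 and 0.145 in GT, and 0.161, 0.262 and 0.189 in TJ. On this measure ND replicate 1 lay beside the other ND libraries, and all ND libraries were above all HFD libraries, with a log2 difference of -1.33 for HFD against ND (exact permutation p = 0.1).

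The other genes divided by comparison. In TJ against HFD, Lipe and Plin1 overlapped (log2 differences of 0.13 and -0.22), while Pnpla2, Mgll, Pde3b and Abhd5 were lower in every TJ library (-0.37, -0.75, -0.86 and -1.26). The reference was 888, 889 and 815 FPKM in HFD, 1132, 1364 and 1683 FPKM in GT, and 1546, 2348 and 1451 FPKM in TJ. A gene at equal FPKM in HFD and an extract group is therefore lower in the latter on this measure. In FPKM, Pnpla2 and Mgll were higher in every TJ library than in every HFD library. In GT against HFD, Lipe and Plin1 were higher in every GT library, by 0.25 and 0.30, Abhd5 was lower (-0.55), and the other 6 genes overlapped. As above, no share over all genes was computed on this measure. In HFD against ND without ND replicate 1, the direction differed between genes. Adrb3 and Pde3b were lower in every HFD library (-1.45 and -0.66), Mgll and Abhd5 were higher (0.78 and 0.38), and Pnpla2, Lipe, Plin1, G0s2 and Adrb1 overlapped. Plin4, Cidec and Fabp4, which are part of the reference, were DEGs in TJ against HFD (1.02, 0.70 and 1.22 on the log2 scale), so the ratios state levels relative to these genes and not per cell.

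**Figure D4:**
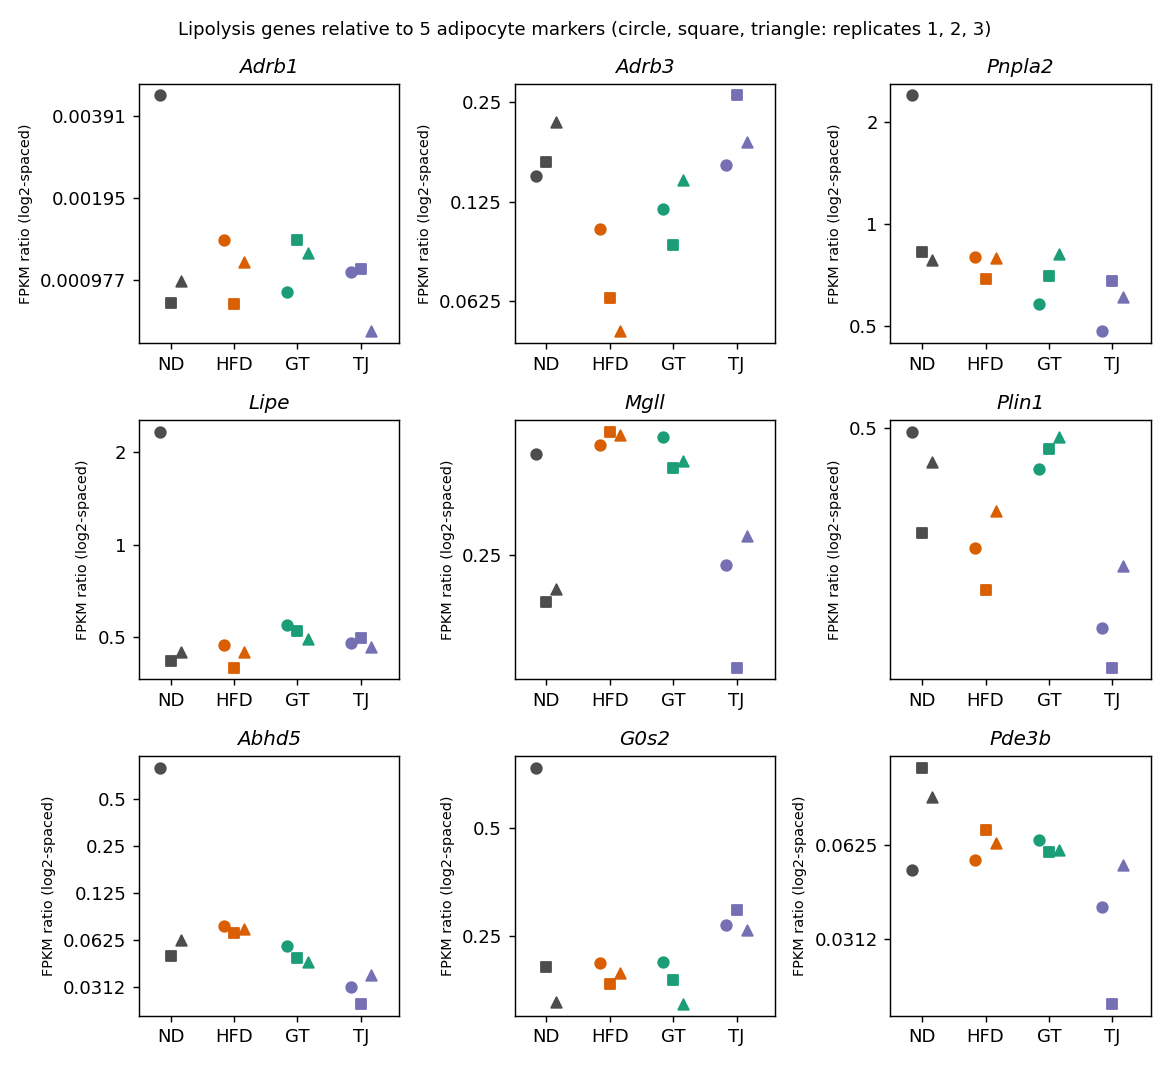
FPKM of each lipolysis gene over the geometric mean of 5 adipocyte markers (y axis, log2-spaced) in the 12 libraries by group (x axis), with circle, square and triangle for replicates 1, 2 and 3. Adrb3 and G0s2 had all TJ above all HFD libraries, and Abhd5 had all GT and TJ libraries below all HFD libraries.

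The wider pathway was read from 58 further genes in 4 lists, of which 51 to 53 passed the filter on low values in each comparison. In TJ against HFD, 12 were higher and 7 lower beside 7.41% and 11.1% of all genes tested (after quantile normalization 10 and 9, with the whole table turned as given above), with a median log2 fold change of -0.08, against -0.14 for all genes. Leaving out HFD replicate 1, 2 or 3 or TJ replicate 1 left 0 of them by limma, with 22 to 25 at an unadjusted p below 0.05. In GT against HFD, 7 were higher and 0 lower, beside 1.83% and 1.81% of all genes tested (233 and 231 genes, which became 405 and 162 after quantile normalization). Their median was 0.06, against -0.12 for all genes. Without HFD replicate 1 the count was 1, without HFD replicate 2 or 3 or GT replicate 2 or 3 it was 0 by limma (18 or 19 at an unadjusted p below 0.05), and without GT replicate 1 it was 13, in fits whose whole-table counts are those given above. In TJ against GT limma called 0 of 51, with 10 at an unadjusted p below 0.05. In HFD against ND, 2 of 53 were higher over all 6 libraries (1.73% of all genes tested). With the replicate number as a block (0 DEGs in the whole table, 2239 genes at an unadjusted p below 0.05), or without ND replicate 2 or 3 or any HFD library, the count was 0 by limma (6 to 14 at an unadjusted p below 0.05). Without ND replicate 1, 10 were higher and 8 lower, beside 11% and 4.34% of all genes tested.

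The first list, 19 genes that make and sense cAMP, showed both directions under TJ: 3 of 16 tested were higher (Gnas, Adcy4, Adcy5) and 3 lower (Adcy3, Adcy7, Adcy9). Of all genes tested, 7.41% were called higher and 11.1% lower in TJ, and 1.83% and 1.81% in GT. These shares hold for the lists below as well. Gnas, which encodes the stimulatory G protein, stood at 204, 214 and 249 FPKM in HFD, 290, 334 and 341 FPKM in GT, and 327, 325 and 369 FPKM in TJ. It rose in TJ by 0.61 ± 0.14 (adjusted p = 0.0347), and the GT estimate of 0.53 ± 0.12 did not pass (adjusted p = 0.0531). Adcy5, an adenylyl cyclase, was the 1 gene of this list called in GT against HFD, with 33.8, 30.5 and 28.7 FPKM in HFD and 47.5, 59.5 and 81.3 FPKM in GT (0.96 ± 0.19, adjusted p = 0.0477). Adcy7, another adenylyl cyclase that is prominent in immune cells, measured 1.05, 5.14 and 7.37 FPKM in ND, 53.1, 56.3 and 63.5 FPKM in HFD, 43.3, 32.2 and 15.2 FPKM in GT, and 18.2, 3.16 and 20.6 FPKM in TJ. It was higher in HFD than in ND by 3.63 ± 0.56 (adjusted p = 0.0447, but 0.107 with the replicate number as a block) and fell by 2.29 in TJ against HFD (SE 0.59, adjusted p = 0.0407). The macrophage sum given above moved with it across the groups, and its part was not tested.

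Brakes on cAMP other than Pde3b numbered 16, with 15 tested in TJ against HFD, 1 of them higher (Akt2) and 2 lower (Gnai3, Rgs2), beside 7.41% and 11.1% of all genes tested. Rgs2, which encodes a regulator of G protein signalling, was 33.3, 27.7 and 37.9 FPKM in HFD, 20.8, 16.6 and 9.08 FPKM in GT, and 15.6, 5.72 and 14.5 FPKM in TJ. It was lower in TJ by 1.49 on the log2 scale (SE 0.35, adjusted p = 0.0343) and higher in HFD than in ND (2.84 ± 0.45, adjusted p = 0.0470, but 0.124 with the block). In GT against HFD, Akt2 was the 1 gene of the list that was called.

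Among 16 other lipases and lipase regulators, 5 of 15 were higher (Plin4, Plin5, Ces1d, Ces1f, Cidec) and 2 lower (Lipa, Plin2) in TJ, and 3 were higher (Plin4, Plin5, Pnpla3) and 0 lower in GT. Plin5, a perilipin of tissues that burn fat, was 6.63, 6.00 and 6.10 FPKM in HFD, 13.2, 17.6 and 21.8 FPKM in GT, and 16.6, 29.6 and 13.5 FPKM in TJ. It rose by 1.33 ± 0.17 in GT (adjusted p = 0.0319) and by 1.45 ± 0.27 in TJ (adjusted p = 0.0248), the largest increase among the listed pathway genes tested in either comparison. Plin4 rose in both groups too, by 1.04 ± 0.21 in GT (adjusted p = 0.0477) and 1.02 ± 0.20 in TJ (adjusted p = 0.0268). Ces1d and Ces1f encode carboxylesterases with lipase activity. Ces1d was 202, 276 and 200.5 FPKM in HFD and 470.4, 1069 and 459 FPKM in TJ (1.45 ± 0.35, adjusted p = 0.0357), and Ces1f rose by 1.28 ± 0.33 (adjusted p = 0.0401). Both belong to a cluster of similar genes, between which reads may be split uncertainly. Without ND replicate 1, Ces1d, Ces1f and Plin4 had the largest decreases in HFD against ND among the DEGs of these 58 genes, with log2 fold changes of -2.55, -1.92 and -1.58 (adjusted p = 0.00263, 0.00486 and 0.0178). Their estimates over all 6 libraries were -1.30, -0.95 and -0.19 (adjusted p = 0.551, 0.571 and 0.936).

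Lipa, the lysosomal acid lipase gene, ran the other way. It measured 1.82, 36.4 and 31.2 FPKM in ND, 365, 379 and 439 FPKM in HFD, 243, 199.9 and 102 FPKM in GT, and 142, 32.9 and 136 FPKM in TJ. All HFD libraries were above all other libraries. Lipa fell by 2.17 in TJ against HFD (SE 0.53, adjusted p = 0.0372), the GT estimate was -1.20 ± 0.30 (adjusted p = 0.0668), and in HFD against ND without ND replicate 1 it was 3.51 ± 0.14 higher (adjusted p = 0.000707). The HFD against ND estimate over all 6 libraries was 4.71 ± 1.02 (adjusted p = 0.105). As with Adcy7, the macrophage marker sum followed the same order of group medians, and its part was not tested. Of 7 carriers of fatty acids and glycerol, 6 were tested, of which 3 were higher in TJ (Aqp7, Fabp4, Slc27a1), 2 in GT (Aqp7, Slc27a1) and 0 lower in either. Aqp7, the adipocyte glycerol channel, was in neither extract group's first 3 by size and is named here after its values were seen: it was 79.1, 70.3 and 73.5 FPKM in HFD, 123, 127 and 134 FPKM in GT, and 148, 173 and 162 FPKM in TJ.

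**Figure D5:**
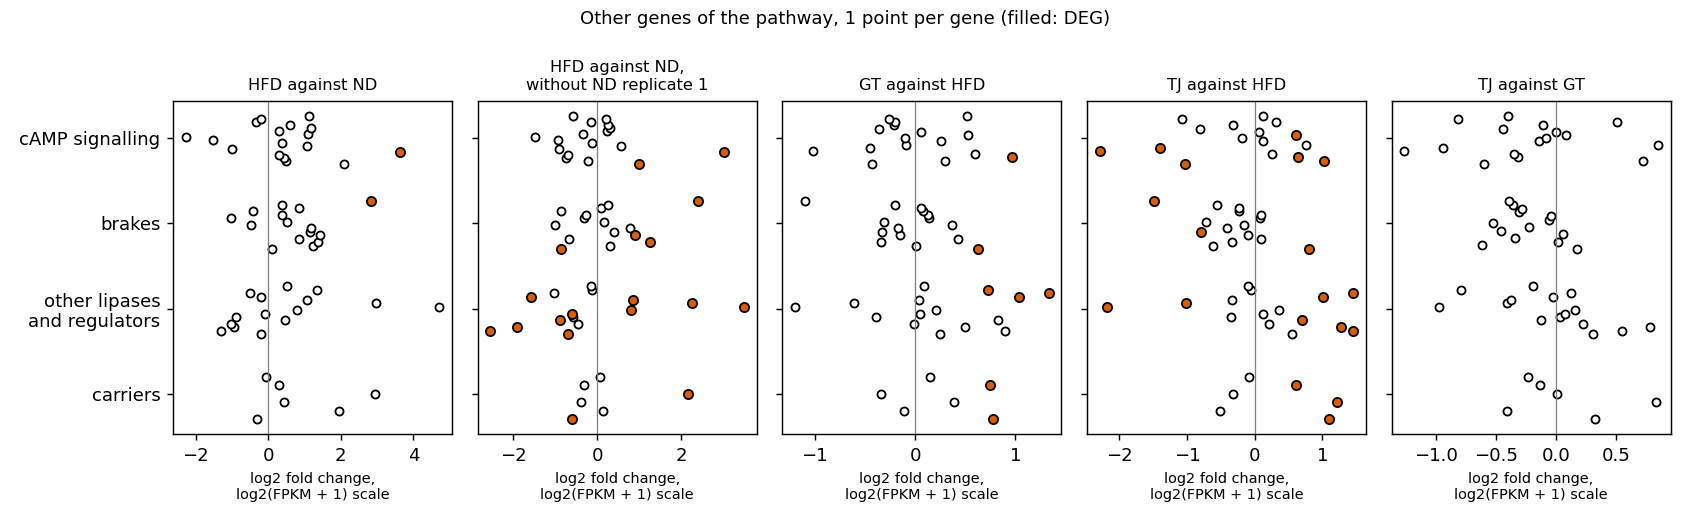
Log2 fold changes (x axis, log2(FPKM + 1) scale, scales differ between panels) of the other pathway genes, 1 point per gene, by list (y axis) and comparison, DEGs filled. In TJ against HFD 12 genes were higher and 7 lower, in GT against HFD 7 were higher and 0 lower, and in TJ against GT 0 were called.

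The genes whose log2(FPKM + 1) followed the 3 central members most closely were listed over the 12 libraries among 13822 genes averaging 1 FPKM or more. For Adrb3 these were Ccdc69, Phyhd1, Nnat, Timp4 and Uck1 (Pearson r from 0.97 to 0.98), for Pnpla2 Trap1, Lrig3, Pccb, Eif2b1 and Sdr42e1 (0.96 to 0.97), and for Lipe Rtl8c, Nol3, Castor1, Atp6v0e2 and Rxrg (each 0.97). These values are descriptive. Cell-type marker sums differed between the libraries, their part was not tested, and ND replicate 1 weighs on the correlations. Without that library, Ccdc69 and Trap1 stayed among the first 5 of Adrb3 and Pnpla2, and none of the 5 of Lipe did.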

How the data were processed

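Whole eWAT RNA was sequenced in 12 libraries, and groups follow the sample titles. Per the labels and methods, the authors prepared TruSeq libraries, filtered reads on quality, mapped them with STAR (2.4.0 in the processing notes) and deposited Cufflinks 2.1.1 FPKM values per gene (CASAVA 1.8.2 is also named in the notes). The methods name another STAR version and a human reference of a numbered Ensembl release, whereas all 23474 identifiers are of mouse genes, so that the alignment behind the table is uncertain. A mouse genome build is not given in the sources used here. Of these, 22671 matched a symbol in GENCODE M21 (GRCm38), which also gave positions. The table holds no counts. The lowest steps among 2315 genes with a single transcript put the depth at about 10.7 (ND replicate 1) to 19.5 M fragments, a rough estimate used in no test. No 2 libraries held identical values.

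Genes averaging 1 FPKM or more across the 6 libraries compared were fitted as log2(FPKM + 1) in limma 3.58.1 (R 4.3.3, eBayes with a trend, no covariate), 1 comparison at a time. The methods describe a count test, which FPKM values do not allow. A fold change is on this log2 scale, and its error is a standard error, with n = 3 libraries per group (2 in ND without replicate 1). Ratios within a library were compared by exact two-sided permutation tests (scipy 1.17.1), with Benjamini-Hochberg adjustment over 52 tests. The fit was tested on simulated data first. The main fits did not pair libraries, and the replicate number entered only as a block in an alternative fit. It was read as a possible pairing of HFD with ND, where same-numbered libraries deviated together (r = 0.55, 0.34 and 0.12), and not elsewhere. HFD replicate 3 correlated more with ND replicate 2 (r = 0.63) than with its own number, so the pairing is a hint from the data and not part of the stated design. The limma p-values set a difference against the spread between these libraries, which eBayes moderates over all genes. Whether that spread is between single mice is not stated for ND and GT.

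The 9 genes and the lists of 58 pathway genes and 59 markers were chosen with earlier results of these data known. Named are the 9 genes, Gnas, in each comparison the 3 pathway DEGs with the largest change in each direction, and the 5 genes with the highest correlation with Adrb3, Pnpla2 and Lipe over 12 libraries. Other DEGs listed beside the counts of TJ or GT against HFD, and Lep, were named after their values were seen. Alternatives were another pseudocount, other filters on low values, other scalings, other sets of libraries, no trend, the replicate block and leaving out each library. A further gene is not reported here. Protein sequences were not used here.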

Additional observations from a re-analysis of the deposited data

How the results depend on the processing

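Over 534 recomputed fold changes of the 9 genes, 442 kept direction and side of the threshold, 55 lost their call, 14 gained one and 23 changed sign, of which 2 (Plin1 in HFD against ND without ND replicate 1) also gained a call. The 7 calls of these genes against HFD (3 in GT, 4 in TJ) kept their sign in every alternative run, but not their call. The cause was not tested. In TJ against HFD the 4 DEGs among the 9 became 0 without a filter on low values and 0 with all 12 libraries in 1 fit, and ranged from 0 to 4 with 1 library left out. The 19 pathway DEGs became 2, 0 and 0 to 21 in the same settings, and 12 with the replicate block. In GT against HFD the 3 DEGs became 0 without a filter, 5 with a mean of at least 5 FPKM, 0 with all 12 libraries, 0 without the trend, 0 with the replicate block and 1 with all libraries but ND replicate 1 in the fit (a setting chosen after seeing the data), and 0 to 6 with 1 library left out. The 7 pathway DEGs became 0, 11, 0, 2, 0, 1 and 0 to 13 in these settings. In HFD against ND the 0 DEGs among the 9 became 5 in the joint fit without ND replicate 1 and 0 to 6 with 1 library left out. The 2 pathway DEGs became 0 with pseudocount 0.1, 0 without a filter, 8 with all 12 libraries, 0 with the replicate block, 24 in the joint fit without ND replicate 1 and 0 to 18 with 1 library left out. In TJ against GT all counts were 0 in every setting. Where limma gave 0 among the 9 genes, an unadjusted p below 0.05 held for 3 to 5 of them in TJ against HFD, 1 to 6 in GT against HFD, 0 to 1 in HFD against ND and 0 to 5 in TJ against GT, and where it gave 0 among the pathway genes, for 7 to 25, 3 to 25, 6 to 14 and 1 to 16.

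None of the estimates that changed sign had been called. For HFD against ND, Adrb1 was 0.095 after quantile normalization, Pde3b 0.0018 with pseudocount 0.1 and Plin1 -0.10 after median-of-ratios scaling, while without ND replicate 1 in the joint fit Plin1 was -1.06 and Mgll -0.12. With 1 library left out the ranges there were -1.54 to 0.82 for Pde3b, -0.79 to 0.20 for G0s2, -1.06 to 0.72 for Plin1, -0.99 to 0.17 for Pnpla2 and -0.12 to 1.42 for Mgll. In TJ against HFD, Mgll was -0.010 after quantile normalization, and Pde3b ranged from -0.042 to 0.34 with 1 library left out. In TJ against GT, Adrb1 was -0.0084 with pseudocount 0.1, Pnpla2 -0.27 and Lipe -0.10 after quantile normalization, and the ranges with 1 library left out were -0.21 to 0.22, -0.23 to 0.36 and -0.025 to 0.37 for these genes. Adrb1 fell under a mean of 5 FPKM everywhere and under 1 FPKM in HFD against ND without ND replicate 2 or 3.

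The median of all genes shifted with scaling, in TJ against HFD from -0.14 to -0.03 (median of ratios) and 0.03 (quantile), in GT against HFD from -0.12 to -0.02 and 0.03, and in HFD against ND from 0.07 to -0.12 (median of ratios). In the comparisons where replicate numbers were not read as a pairing, the block left 3 of the 9 genes in TJ against HFD, 0 in GT against HFD and 0 in TJ against GT. With 3 libraries a group and no counts, small changes and those of Adrb1 could not be resolved.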
